A study of Caenorhabditis elegans with 2 samples.

Results

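Nuclear hormone receptors are transcription factors with a zinc finger domain that binds DNA and a second domain that can bind a small lipophilic ligand. Caenorhabditis elegans has far more of them than insects or mammals, most of them derived from an ancestor related to the vertebrate receptor HNF4, and a smaller number with clear relatives in other animals. Receptors with known roles in the worm control moulting, entry into the dauer stage, fat metabolism, the handling of foreign compounds and the identity of single neurons. The promoters of these genes were examined for binding of another zinc finger protein, T20F7.1. The genes were chosen by name: protein-coding genes of the WBcel235 annotation whose name starts with nhr-, 269 in number, and the 5 receptor genes daf-12, unc-55, sex-1, fax-1 and odr-7. These are 274 of 19973 protein-coding genes.

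Chromatin immunoprecipitation with sequencing was done with an anti-GFP antibody on whole L4 larvae of mixed sex, aged 48 hours. The single group came from strain OP754. Its insertion wgIs754 expresses T20F7.1::TY1::EGFP::3xFLAG and carries unc-119(+) as the rescue of the unc-119 (tm4063) allele that all animals share. It had 2 biological replicates, grown from larvae starved at L1 after bleaching. As whole animals were used, no binding can be given to a tissue, and no control immunoprecipitation was analysed here.

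A promoter summit is the summit of a region that lies from 500 bp upstream to 100 bp downstream of the annotated gene start. The authors' lists hold 30000 candidate regions for each replicate and 30000 for the pooled replicates, which by the lists' own name hold background beside peaks. A further list holds 2586 peaks retained by the irreproducible discovery rate (IDR) procedure, which rests on how alike regions rank in replicates. The signal value of a region is the height given by the authors' peak caller, and the retained peaks are the top 2586 of the pooled list by this value, down to 95.6. A single retained peak need not rank alike in both replicates. The candidates at the IDR peak with its summit at V:480790, for example, had ranks 22065 and 1576 in replicates 1 and 2. Pooled signal values were close to the sum of both replicates (median ratio 1.01 over the receptor genes with an IDR summit), so pooled values are not compared with those of a replicate. Values of replicates 1 and 2 are set side by side without scaling. At rank 2586 their lists stood at 50.1 and 53.0, so small gaps between the replicates carry little meaning.

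Of the 274 receptor genes, 15 (5.47%, 95% Wilson interval 3.35 to 8.83) had an IDR promoter summit, against 7.31% of all protein-coding genes, which lies inside the interval. The interval covers the sampling of genes only. In order of pooled signal value the 15 were nhr-47, nhr-68, nhr-142, nhr-35, nhr-255, nhr-256, nhr-8, nhr-49, nhr-105, nhr-45, nhr-227, nhr-34, nhr-121, nhr-80 and nhr-28. Several have known roles. NHR-68 acts with NHR-10 to switch on an alternative pathway of propionate breakdown, and NHR-8 takes part in cholesterol balance and the response to foreign compounds. NHR-49 is a main regulator of fatty acid oxidation and desaturation, with NHR-80 as a partner in the control of desaturase genes. NHR-45 has been linked to detoxification genes that respond to mitochondrial dysfunction.

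The sequence at the summits is shown for 6 of these genes, to set 3 summits with frequent words beside the 2 strongest of the 15 without them (nhr-68 and nhr-35) and 1 weak summit (nhr-80). The summit at nhr-255, which lies inside a transfer RNA gene, is not shown. Each stretch is read 5′ to 3′ on the strand of the receptor gene, from the WBcel235 sequence, and covers 50 bp on either side of the summit, except at nhr-47, where it ends at the last base before the gene start. Capitals mark matches on either strand to any of 5 words that were frequent at the summits of this experiment. Of the 1188 IDR promoter summits of all genes, ACGCGC was within 50 bp of 174 (14.6%), ACGCAG of 133 (11.2%), GACGCA of 143 (12.0%), ACACTC of 190 and CGTCTC of 123 (10.4%). The word GACGCA can overlap ACGCAG as well as the reverse complement of CGTCTC.
nhr-47, chrV:5505206-5505252, plus strand: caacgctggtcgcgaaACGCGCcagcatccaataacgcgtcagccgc
nhr-142, chrV:5790962-5791062, minus strand: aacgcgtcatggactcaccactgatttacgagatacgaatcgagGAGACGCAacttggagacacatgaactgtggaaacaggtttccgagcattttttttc
nhr-256, chrV:1743644-1743744, plus strand: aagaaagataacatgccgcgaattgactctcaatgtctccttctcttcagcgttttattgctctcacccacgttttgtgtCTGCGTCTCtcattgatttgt
nhr-68, chrV:11573041-11573141, plus strand: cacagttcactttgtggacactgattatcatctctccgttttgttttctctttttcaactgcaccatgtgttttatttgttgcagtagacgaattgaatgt
nhr-35, chrX:4532280-4532380, plus strand: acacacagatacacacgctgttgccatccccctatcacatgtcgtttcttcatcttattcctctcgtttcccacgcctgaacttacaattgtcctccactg
nhr-80, chrIII:14899-14999, minus strand: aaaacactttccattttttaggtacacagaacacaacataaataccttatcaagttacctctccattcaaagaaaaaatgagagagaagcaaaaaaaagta

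At least 1 of the words lay within 50 bp of 5 of the 15 receptor summits (33.3%), against 41.6% of all 1188 IDR promoter summits. All 5 were in the stronger 50% of IDR peaks: nhr-47 held ACGCGC, nhr-255 held ACGCAG, nhr-8 held GACGCA, nhr-142 held GACGCA overlapping with CGTCTC, and nhr-256 held both of these together with ACGCAG. In that stronger part 5 of 7 receptor summits had a word, against 54.0% of 733 promoter summits. The 5 include nhr-255, whose summit lies inside a transfer RNA gene. In the weaker part 0 of 8 had one, against 21.5% of 455 promoter summits. Base composition moved the same way, with a median GC content of 45.5% at the 7 stronger and 29.7% at the 8 weaker receptor summits, against 43.6% and 35.6% at all promoter summits of the same classes. The part of base composition in the word counts was not tested. ACACTC was at 0 of the 15. Over the whole promoter windows, whether or not bound, 143 of the 274 receptor genes (52.2%) and 9795 of all 19973 genes held a word. ACGCGC alone was in 4.74% of receptor windows and 10.2% of all windows.

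The 3 strongest receptor summits were all shared with another protein-coding gene, and the other 12 were not. The summit at nhr-47 had a pooled signal value of 427 and rank 312, with 231 in replicate 1 and 191 in replicate 2. It lay 3 bp downstream of the gene start, in the 5′ UTR, 399 bp upstream of dnj-19, a gene for a DnaJ-type co-chaperone, and 5 bp inside the non-coding RNA gene C24G6.10. The 2 replicates placed it at ranks 302 and 361, so it was strong in each. The summit at nhr-68 had a pooled value of 326, with 142 and 174 in replicates 1 and 2. It was intergenic, 349 bp upstream of nhr-68 and nearer to the start of H12C20.7, also on its upstream side. At nhr-142 the pooled value was 305, with 149 and 159 in the replicates, and the summit lay 459 bp upstream of nhr-142 and 218 bp upstream of F44E7.9. When a summit counted only for the closest gene start, nhr-68 and nhr-142 dropped out, which left 13 receptor genes (4.74%) against 5.84% of all genes. Over all genes with an IDR promoter summit, 40.3% shared their strongest one with another gene, against 3 of the 15 receptor genes (Wilson interval 7.05 to 45.2%).

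Among summits that no other protein-coding gene shares, nhr-35 had the strongest, with a pooled value of 252 and values of 131 and 119 in replicates 1 and 2. It was intergenic, 361 bp upstream of the gene start, and nhr-35 held a further 2 weaker IDR summits in its introns. At nhr-255 the pooled value was 190, with 91.5 and 94.4 in the replicates. That summit lay 489 bp upstream of nhr-255, near the edge of the window and inside a transfer RNA gene (WBGene00014626, which overlaps the non-coding RNA gene ZK678.11), so it is no nearer to the receptor gene than to these. At nhr-256 the pooled value was 159, with 73.7 and 83.1, and the intergenic summit lay 77 bp upstream of the start. The summit at nhr-8 had a pooled value of 144, with 69.1 and 79.6, and lay 59 bp downstream of the start in the 5′ UTR. These 7 genes were the receptor genes in the stronger 50% of IDR peaks, and each was among the 2586 strongest regions of both replicates.

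The other 8 summits were weak, with pooled values from 123 at nhr-49 down to 99.7 at nhr-28, which is 1.04 times the lowest value of any IDR peak. At nhr-49 the replicates gave 49.3 and 68.2, at 294 bp upstream. At nhr-80 they gave 73.8 and 40.3, at 80 bp upstream. The summits of these partners in fat metabolism had pooled ranks 1653 (nhr-49) and 2076 (nhr-80), where the IDR list ends at rank 2586. The higher value was in replicate 2 at nhr-49 and in replicate 1 at nhr-80. At nhr-105 the values were 78.6 and 41.2, the widest gap of the 15. At nhr-227 they were 73.9 and 46.6, at nhr-121 they were 41.6 and 66.7, and at nhr-28 they were 42.3 and 61.97. Only nhr-45, with 55.7 and 64.5, and nhr-34, with 61.0 and 53.8, reached the 2586 strongest regions of both replicates among these 8. All 8 summits were intergenic, between 80 and 404 bp upstream of the gene start.

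**Figure D1:**
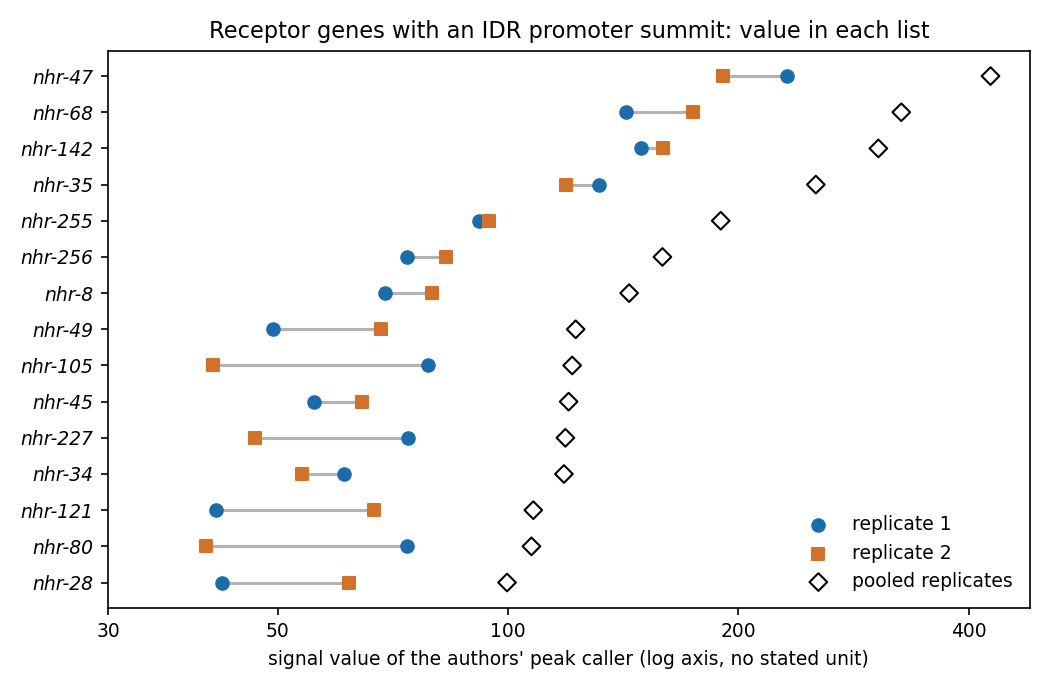
Signal value (log axis) of the promoter summit of each of the 15 receptor genes in replicate 1 (circles), replicate 2 (squares) and the pooled replicates (diamonds), where grey lines join the replicates. The 7 genes from nhr-47 to nhr-8 have replicate values close to each other, and among the 8 genes below them the gap reaches 1.91-fold at nhr-105.

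Each of the 15 had a candidate within 100 bp of the pooled summit in both replicates. Taken without its sign, the log2 ratio between replicates was 0.28 in the median (range 0.04 to 0.93), against 0.20 over 1409 genes with such a pair. With its sign, as replicate 2 over replicate 1, the median was 0.09, and neither replicate was the higher one throughout. Of the 15, 9 (60.0%) were among the 2586 strongest regions of both replicates, 3 of replicate 1 alone and 3 of replicate 2 alone, whereas 76.8% of all genes with an IDR promoter summit were in both.

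The receptor summits had lower signal values in the median than those of all genes. The median pooled signal value of the strongest IDR promoter summit was 123 over the 15 receptor genes (range 99.7 to 427) and 189 over all 1460 genes (up to 6064). The authors' −log10 q value reached 2 at 6 of the 15 (40.0%) and at 61.6% of all genes with an IDR promoter summit. The receptor summits also lay farther from the start, at a median of -294 bp (negative upstream) against -190 bp over all genes. Within 250 bp upstream to 50 bp downstream of the start, 5 receptor genes (1.82%) kept a summit, against 4.54% of all genes. These were nhr-47, nhr-256, nhr-227, nhr-34 and nhr-80. No test was made on the values, positions and shares given here, since the members had been proposed with results of these data known.

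**Figure D2:**
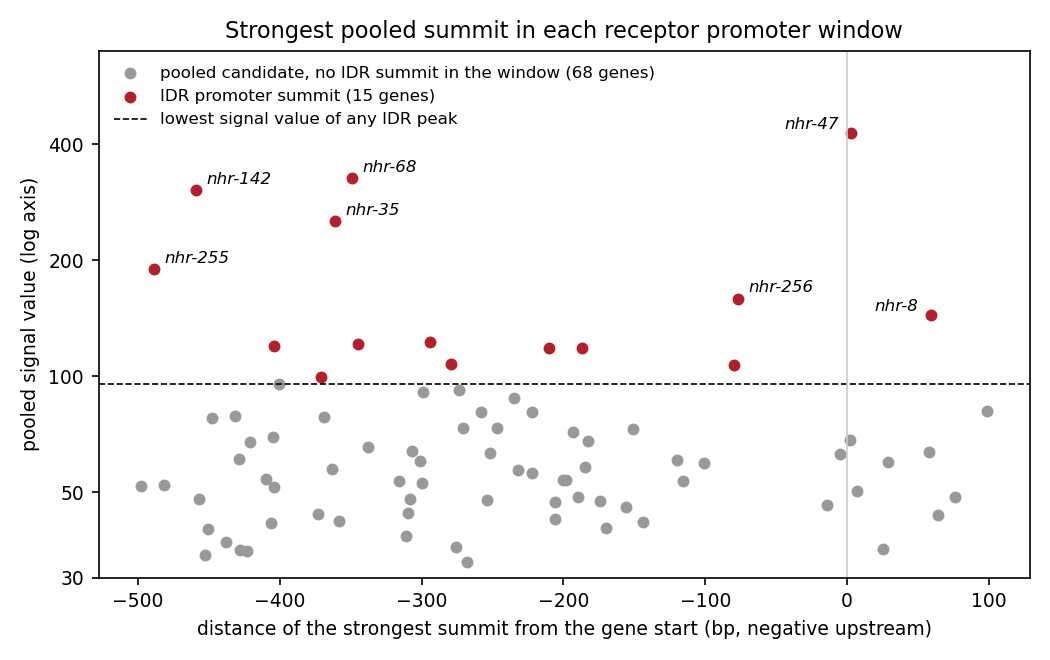
Pooled signal value (log axis) of the strongest summit in the promoter window of each receptor gene against its distance from the gene start in bp. The 15 genes with an IDR summit are in red and the 68 with a weaker candidate alone in grey, and the dashed line is the lowest signal value of any IDR peak. The 7 labelled genes lie above 140, 4 of them at least 349 bp upstream.

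Candidate regions, IDR peaks included, were counted in the same window. A pooled candidate summit lay in the window of 83 receptor genes (30.3%), against 26.3% of all genes, and 68 of the 83 had no IDR summit, as had 3794 of the 5254 such genes overall. This order turned with the narrow window, from 250 bp upstream to 50 bp downstream, where 14.2% of receptor genes and 14.9% of all genes had a pooled candidate. When a −log10 q of at least 2 was asked for, the shares were 2.19% and 4.50%, from 6 and 899 genes. IDR peaks with the same cut gave the same counts, so this filter describes the top of the IDR list and not the weaker candidates. A candidate in both replicates was found at 62 receptor genes (22.6%, Wilson interval 18.1 to 27.9) against 18.9% of all genes, again inside the interval. Their strongest summits lay within 100 bp of each other at 48 of the 62 (77.4%), against 81.2% over all such genes. These 62 were 75.6% of the 82 receptor genes with a candidate in replicate 1 (26.5% of all genes had one) and 74.7% of the 83 with one in replicate 2 (26.2% of all genes). Over all genes these overlaps were 71.0% and 72.01%. In any of the 3 candidate lists, 106 receptor genes (38.7%, Wilson interval 33.1 to 44.6) had a candidate, against 34.7% of all genes, and 168 had none. Pooled ranks 2587 to 5172, the same number of regions as the IDR list and just below it, held the strongest summit of 14 receptor genes (5.11%), against 3.09% of all genes. Ranks 5173 to 10000 held that of 17 receptor genes (6.20%) against 3.92%, ranks 10001 to 20000 that of 24 (8.76%) against 6.36%, and ranks 20001 to 30000 that of 13 (4.74%) against 5.62%. In each of these ranges the Wilson interval of the receptor share held the share of all genes. From the strongest range to the weakest the intervals were 3.07 to 8.39%, 3.91 to 9.71%, 5.96 to 12.7% and 2.79 to 7.95%.

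**Figure D3:**
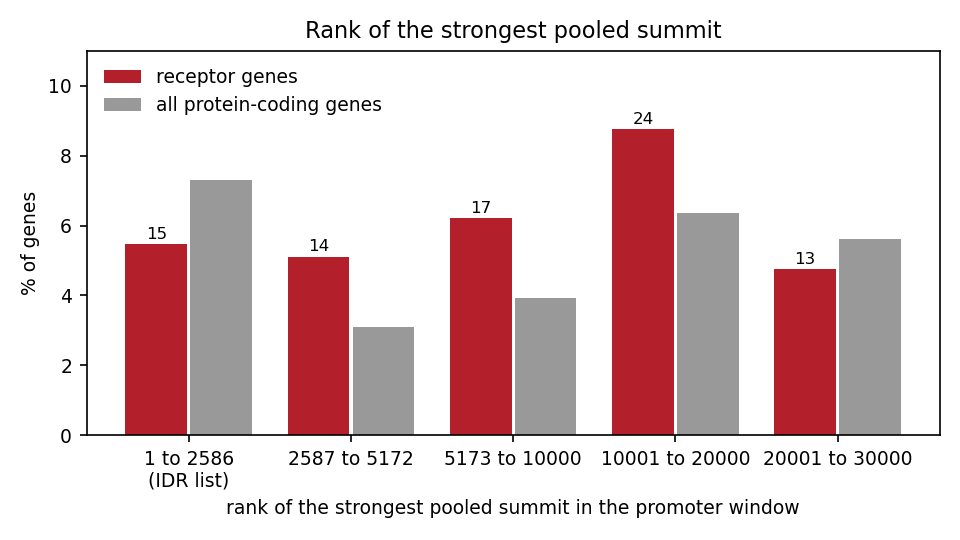
Share of receptor genes (red) and of all protein-coding genes (grey) whose strongest pooled promoter summit falls in each range of ranks, with the number of receptor genes above each red bar. Receptor genes are the lower bar in ranks 1 to 2586 (5.47% against 7.31%) and the higher one in ranks 2587 to 5172, 5173 to 10000 and 10001 to 20000. In every range the Wilson interval of the receptor share, not drawn, holds the share of all genes.

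The gene nearest to the limit was nhr-97, with a pooled value of 95.4 at rank 2594 and 35.4 and 53.1 in replicates 1 and 2. Next came nhr-3 with a pooled value of 92.1, and its replicates were even, at 46.7 and 46.8. nhr-110 had 91.1, with 42.3 and 47.9. The remaining 7 of the 10 strongest such genes were nhr-135 (pooled 87.9), nhr-21 (81.4), nhr-87 (80.7), nhr-130 (80.7), nhr-84 (78.8), nhr-195 (78.6) and nhr-17 (78.1). Of these, nhr-21, nhr-130 and nhr-17 had no candidate of replicate 1 in the window. The replicate lists also gave 5 receptor genes with a candidate in each replicate and none in the pooled list, against 153 of all 19973 genes: daf-12, nhr-161, nhr-168, nhr-247 and nhr-291. At nhr-291 the values were 52.3 and 66.4, at ranks 2372 and 1649, with summits 79 bp apart, and it was the 1 receptor gene among 33 genes with strong regions in both replicates and no pooled candidate in the window. The other 4 were far weaker in at least 1 replicate, with ranks from 8997 to 26311.

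The conserved receptors, 16 genes with clear relatives in insects or vertebrates, included 1 with an IDR promoter summit, nhr-8, and 7 with a pooled candidate, where all genes had shares of 7.31% and 26.3%. nhr-48, from the same branch as nhr-8, had an IDR summit just outside the window, 512 bp upstream of the start, with a pooled value of 149 and 72.9 and 84.9 in the replicates. It was counted with a wide window, which starts 1000 bp upstream and ends 200 bp downstream, and with any overlap of region and window. In replicate 2 the summit of this region lay inside the window, so nhr-48 was also counted with the strongest regions of that replicate alone. Its pooled candidate inside the window was weaker, at 60.2. The candidates of the moulting regulator nhr-23 (pooled 52.3, rank 12375), the HNF4 relatives nhr-64 (61.1) and nhr-69 (60.0), nhr-111 (40.1) and the tailless relative nhr-67 (37.1) were all far below the IDR limit. daf-12, the receptor for the dafachronic acid hormones that block dauer entry, had replicate candidates of 22.5 and 21.1, with summits 200 bp apart. No candidate lay in the window of nhr-6, nhr-25, nhr-41, nhr-85, nhr-91, unc-55, sex-1 or fax-1, nor at odr-7, which specifies the AWA olfactory neuron. unc-55 and fax-1 act in motor neurons and interneurons, and sex-1 takes part in sex determination by counting X chromosomes.

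Among 13 receptors with reported roles in metabolism or stress, 3 had IDR promoter summits, nhr-68, nhr-49 and nhr-80, against 7.31% of all genes. nhr-31, needed for vacuolar ATPase expression in the excretory cell, had a pooled candidate of 51.8 and none in either replicate. The other 9 had no candidate in the window of any list, as had 65.3% of all genes: nhr-10, nhr-13, nhr-14, nhr-57, nhr-62, nhr-66, nhr-76, nhr-86 and nhr-114. nhr-10, the partner of nhr-68, is thus among those without a region.

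Inside the genes themselves, 14 receptor genes (5.11%) had an IDR summit between gene start and end, against 3.69% of all genes, and 11 of these (4.01%, against 2.63%) had none in the promoter window. Counting either place, 26 receptor genes (9.49%) had an IDR summit, against 9.94% of all genes. The strongest of the 11 was in an intron of nhr-19, 1912 bp from the start, with a value of 331 and 187 and 147 in replicates 1 and 2. nhr-3 followed, with 233 in an intron 1932 bp from the start and 113 and 126 in the replicates. At nhr-14, whose product takes part in iron uptake and immunity, a summit of 162 lay in the 3′ UTR and one of 118 in an intron. nhr-66, another NHR-49 partner, had a summit of 132 in the 5′ UTR of an internal transcript and one of 106 in the 3′ UTR, and nhr-31 had an intronic summit of 104 near an internal transcript start. These latter genes, nhr-66 and nhr-31, were counted when any annotated transcript start was used, which gave 17 receptor genes (6.20%) against 7.91% of all genes. The summit of daf-12, with 96.7, lay in an intron 1779 bp from the start and was close to the IDR limit. The remaining genes with an intronic summit alone were nhr-11 (110.6), nhr-17 (113), nhr-46 (102), nhr-97 (107) and nhr-27 (105), the last in the promoter window of cept-1.

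Most receptor genes, 167 of 274 (60.9%), lie on chromosome V, which holds 25% of all protein-coding genes. On V, 5 of 167 receptor genes (2.99%) had an IDR promoter summit, against 5.55% of all genes there. On the other chromosomes 10 of 107 (9.35%, Wilson interval 5.16 to 16.4) had one, against 7.90% of all genes. The X chromosome held 4 of 27 (14.8%, interval 5.92 to 32.5), against 5.79% of genes, and IV held 3 of 33 against 7.41%. III held 2 of 8 against 9.55%. On I it was 1 of 24 against 9.83%. On II it was 0 of 15 against 7.16%, with an upper Wilson bound of 20.4%. The share differed along V in both sets: in its ends, outside the middle 25 to 75% of the length, 2 receptor genes (1.80%) and 1.60% of all genes had a summit, and in its centre 3 of 56 (5.36%) and 9.11%. Pooled candidates were found at 28.1% of the receptor genes on V and at 26.1% of all genes there, and in the ends of V at 21.6% and 12.1%. In the ends of the other chromosomes, taken the same way, the shares were 26.0% and 14.8%. Over all chromosomes, 58.8% of receptor genes and 44.7% of all genes lie in the ends, so shares over all chromosomes mix these parts differently in the 2 sets.

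**Figure D4:**
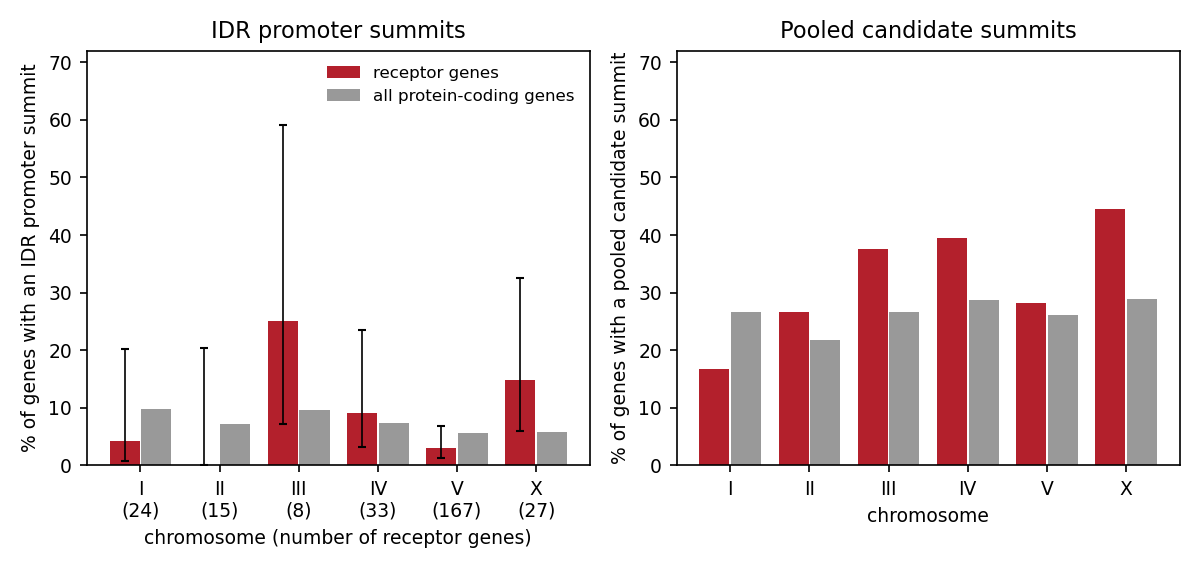
Share of receptor genes (red) and of all protein-coding genes (grey) per chromosome with an IDR promoter summit (left, bars with 95% Wilson intervals, number of receptor genes in brackets) and with a pooled candidate summit (right). The V bar, with 167 receptor genes, is at 2.99% on the left and 28.1% on the right, next to 5.55% and 26.1% of all genes.

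Many receptor genes stand side by side, and this grouping was looked at after the values were seen. Of the 274, 137 have another receptor gene as the next protein-coding gene on at least 1 side, and 137 do not. An IDR promoter summit was found at 1 gene of the first kind (0.730%), nhr-227, and at 14 of the second (10.2%), against 7.31% of all genes. On V the counts were 1 of 107 and 4 of 60, against 5.55% of all genes there. In the centre of V alone they were 0 of 40 and 3 of 16, against 9.11% of all genes. In the ends of V, where the other side-by-side genes of V lie, only 1.60% of all genes had a summit. On the other chromosomes the counts were 0 of 30 and 10 of 77, against 7.90%. The part of position along the chromosome in these counts was not tested. No such share was computed for other genes that stand side by side, and no test was made. Over all chromosomes, pooled candidates were at 43 of 137 genes side by side (31.4%) and 40 of 137 apart (29.2%), against 26.3% of all genes. On V they were at 35 of 107 side by side and 12 of 60 apart, the reverse of the order of IDR summits. On the other chromosomes they were at 8 of 30 and 28 of 77, the same order as the IDR summits. Within the side-by-side genes, neighbouring promoters held moderate candidates in places: nhr-110 (91.1) and nhr-117 (73.5) are neighbours near one end of V, with nhr-178 (71.9) close by.

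Genes that act with the receptors were looked at through a short hand list. Of 15 names of enzymes and carriers of receptor ligands and of coregulators, 14 were found among the gene names of the annotation, and daf-21 was not. An IDR promoter summit was found at 0 of the 14, against 7.31% of all genes, and a list this short cannot set 0 apart from that share. The 14 include daf-9 and daf-36, enzymes of dafachronic acid synthesis, the corepressor gene din-1 and the coactivator genes cbp-1 and mdt-15. A pooled candidate was found at 3 of them, against 26.3% of all genes, mdt-15 (68.7, with 46.9 and 22.8 in the replicates), lbp-8 (48.0) and daf-36 (44.9). Inside the gene, mdt-15, the Mediator subunit that acts with NHR-49, had an IDR summit of 104, and emb-8, the reductase that serves cytochrome P450 enzymes, had one of 112. With the wide window cbp-1, emb-8 and strm-1, a sterol methyltransferase gene, were counted. Of 12 genes known as receptor targets 0 had an IDR promoter summit, and 2 had pooled candidates, fat-7 (41.4) and odr-10 (58.7), set against the same shares of all genes. fat-6, a stearoyl-CoA desaturase gene controlled by NHR-49 and NHR-80, had an IDR summit of 120 inside the gene, 748 bp from its start, which was counted when any transcript start was used.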

How the data were processed

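Peak lists of 1 group with 2 biological replicates were used, on assembly ce11, whose chromosome names and lengths were checked against WBcel235. The authors deposited, per the labels and the text beside the lists, narrowPeak files made from the replicate alignments and a control alignment. The signal value in the deposited lists is the height given by the authors' peak caller, and the −log10 q-value is also the authors'. Which programs aligned reads and called peaks, and on what scale the signal is, was not given in the sources used here. The lists hold no read counts, so read depth is unknown.

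Genes came from Ensembl release 115. The summit is the region start plus the deposited offset, written 1-based, and the highest signal value in a window stands for the gene. Replicate values at IDR summits are those of the nearest candidate within 100 bp, and elsewhere those of the strongest candidate in the window. Members, gene lists, words and alternatives were chosen with earlier results of these data known, so counts are set beside those over all genes and no test was made. Genes named are those with an IDR promoter summit, the 10 strongest below it, the conserved and metabolic receptors, odr-7, genes with candidates in the replicates alone, and partners or targets with a region. Genes with an IDR summit inside the gene and neighbours in gene clusters were named after their values were seen. The assignment of summits to windows was tested on simulated data. Python 3.11.15, numpy 2.4.6, pandas 2.3.3, scipy 1.17.1 and matplotlib 3.10.9 were used.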

Additional observations from a re-analysis of the deposited data

How the results depend on the processing

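No paired analysis was possible because there was 1 group and no test. The number of receptor genes with an IDR promoter summit stayed within 1.5 times of 15 with the wide window (18, 6.57% against 9.04% of all genes). It did so too with any transcript start (17, 6.20% against 7.91%), the nearest start alone (13, 4.74% against 5.84%) and any overlap of region and window (18, 6.57% against 8.33%). It was 5 with the narrow window (1.82% against 4.54%) and 7 in the stronger 50% of IDR peaks (2.55% against 4.77%). With a −log10 q of at least 2 it was 6 (2.19% against 4.50%). Fewer positions or peaks are counted in these settings, for receptor genes and all genes alike. With the 2586 strongest regions of a single replicate the number ranged from 12 (without replicate 2, 4.38% against 7.32% of all genes) to 16 (without replicate 1, 5.84% against 7.35%). In each case 11 of the 15 genes were kept. The genes lost include nhr-142 without replicate 1 and nhr-255 without replicate 2. Their regions ranked 437 in replicate 2 (nhr-142) and 936 in replicate 1 (nhr-255), but the summit in that replicate fell outside the window. Conserved receptors with a summit were 0 with the narrow window or a −log10 q of at least 2, and 2 with the wide window or any overlap. They ranged from 1 to 2 without either replicate. Ligand and coregulator genes numbered 3 with the wide window and 1 with any overlap. Receptor targets numbered 1 with the wide window and 1 with any transcript start. Receptor genes with a pooled candidate were 39 with the narrow window (14.2% against 14.9% of all genes), below the share of all genes, unlike 30.3% against 26.3%. With a −log10 q of at least 2 they were 6 (2.19% against 4.50%), the same count as for IDR peaks with that cut. Receptor genes with a candidate in both replicates were 27 with the narrow window (9.85% against 9.70% of all genes) and 95 with the wide window (34.7% against 29.9%). They were 36 in the stronger 50% of candidates (13.1% against 12.4%) and 4 with a −log10 q of at least 2 (1.46% against 4.09%). The median signal value was 252 in the stronger 50% of IDR peaks, and 67.5 and 73.8 without replicate 1 and without replicate 2, whose lists have lower values throughout. The share of summits shared with another gene was 0% with the narrow window, 42.9% in the stronger 50% of IDR peaks, and ranged from 12.5 to 25% without either replicate. The share on chromosome V was 60% with the narrow window, 57.1% in the stronger 50%, and ranged from 31.2 to 50% without either replicate. The causes of the shifts not stated here were not tested. Only 15 receptor genes carry an IDR summit, and 8 of them lie in the weaker 50% of IDR peaks, which limits every share given over them.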
